A study of Sus scrofa with 8 samples.

Results

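The genes described here are the fibroblast growth factor (FGF) receptors FGFR1, FGFR2, FGFR3 and FGFR4, the syndecans SDC1, SDC2, SDC3 and SDC4, and the glypican GPC1, followed through the differentiation of cultured pig muscle cells. A gene was taken when its name in the deposited gene table equalled 1 of these 9 symbols. The rule found 8 of the 9 among 25285 genes, and no symbol was repeated. No row carried the name FGFR1. The row named FGFR1IIIC (ENSSSCG00000015815) is paired with FGFR1 by its Ensembl identifier, so its values are given beside the others under its own name and it is left out of the counts of genes found by the rule. It is a row for a whole gene, and its name says nothing on which splice form was measured. The RNA came from primary cells of pig skeletal muscle (strain LYD, as the labels spell it), which the protocol calls MuSCs. There were 8 libraries in 4 groups of 2: undifferentiated females, undifferentiated males, differentiated females and differentiated males. How the cells were differentiated and for how long is not given in the sources used here. The labels do not say whether the 2 replicates of a group are different animals, so the p-values speak only of the spread among these 8 libraries, which may be technical.

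FGF receptors are tyrosine kinases of the cell surface that pair up and signal, mainly through the ERK cascade, when an FGF binds. Most FGFs bind them firmly only together with heparan sulfate, a sulfated sugar chain carried by proteoglycans such as the syndecans, which span the membrane, and the glypicans, which are held to it by a lipid anchor. In skeletal muscle, FGFs are known to keep myoblasts dividing and to delay their fusion, FGFR1 and FGFR4 are the main receptors of myogenic cells, and SDC3 and SDC4 are used as surface markers of satellite cells, the stem cells of muscle.

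On the Sscrofa10.2 build, the table places FGFR1IIIC on chromosome 15 (55215592 to 55269381, plus strand), FGFR2 (ENSSSCG00000010698) on chromosome 14 (142500502 to 142570296, minus strand) and FGFR3 (ENSSSCG00000030827) on chromosome 8 (337382 to 341443, minus strand). FGFR4 (ENSSSCG00000014047) lies on chromosome 2 (82414997 to 82427326, minus strand). Its row carries the description of a microRNA, but 9 of the 10 named genes around it are also neighbours of FGFR4 in RefSeq's list for another pig assembly. For FGFR1IIIC, 7 of 10 neighbours were shared. SDC1 (ENSSSCG00000008601) lies on chromosome 3 (125988735 to 125994234, minus strand), SDC2 (ENSSSCG00000006088) on chromosome 4 (43122710 to 43138586, minus strand), SDC3 (ENSSSCG00000003592) on chromosome 6 (81278306 to 81287308, plus strand) and SDC4 (ENSSSCG00000007401) on chromosome 17 (53254492 to 53270748, minus strand). GPC1 (ENSSSCG00000016364) lies on chromosome 15 (154436055 to 154449107, minus strand).

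Levels are in FPKM, fragments per kilobase of transcript after scaling to library size. Genes are set side by side below, which assumes transcript models of the right length in this build, and that was not tested. How many reads each library held is unknown. The depth relative to the median library, estimated from low values, ran from 1.03 to 1.34 in undifferentiated cells and from 0.604 to 0.966 in differentiated cells, and between 11940 and 13074 genes per library reached 1 FPKM. The markers of the labels were present. The summed level of 8 myotube genes was 54.6 to 165 FPKM in undifferentiated and 11137 to 16084 FPKM in differentiated libraries, and all 8 rose. MYH8, ACTA1, CKM and TNNC2 reached the mean of 1 FPKM needed for testing only through their differentiated libraries. The summed level of 6 proliferation genes was 290 to 431 FPKM in undifferentiated and 36.3 to 106 FPKM in differentiated libraries, and all 6 fell. Of 8 satellite cell and myoblast markers, PAX7 and ITGA7 were not analysed here, MYF5 and MYOD1 fell, and the other 4 rose. Summed fibroblast markers were 107 to 321 FPKM before and 431 to 1129 FPKM after differentiation. In every library most of that sum was COL1A1 and COL3A1. Of 5 tested fibroblast markers 2 rose and 3 did not pass. DCN overlapped between the states (0.999 to 5.86 FPKM before, 1.18 to 21.3 FPKM after). Of the markers of other cell types, 5 of 6 endothelial genes stayed under 1 FPKM in every library with EMCN at 0, while PECAM1 ranged from 2.07 to 6.78 FPKM. On the epithelial list, 5 of 6 genes stayed under 1 FPKM while CDH1 rose from at most 0.249 to between 20.9 and 36.3 FPKM. On the immune and plasma cell list, 6 of 8 had a row and their sum was 12.06 to 17.1 FPKM before and 3.59 to 6.80 FPKM after differentiation. Of them, CD14 fell from between 11.5 and 15.2 to between 1.74 and 2.46 FPKM, PTPRC and CSF1R stayed under 1 FPKM, and CD68, CD3E and MZB1 reached at most 1.78, 2.41 and 1.40 FPKM. On the Schwann list S100B fell from a mean of 5.02 to 2.04 FPKM, and SOX10 stayed under 1 FPKM. The 4 tested smooth muscle and pericyte genes rose, with ACTA2 from 8.47 to 26.1 FPKM up to 993 to 1166 FPKM, while MYH11 stayed under 1 FPKM. CDH1 and the pericyte gene CSPG4 also reached the mean needed for testing only through their differentiated libraries. The part of other cell types in the results below was not tested. In RNA from whole cultures, fewer cells of a type and less RNA per cell cannot be told apart.

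FGFR1IIIC, FGFR3, FGFR4 and 3 of the 4 syndecans were lower in differentiated cells, while SDC2 and GPC1 were higher. Of the 8 genes found by the rule, 7 reached a mean of 1 FPKM and were tested with limma on log2(FPKM + 1), over 12963 genes. FGFR4, FGFR3, SDC4, SDC1 and SDC3 fell and SDC2 and GPC1 rose, so that 7 of 7 passed at an adjusted p under 0.05, against 50.0% of all genes tested. By direction, 5 of 7 fell against 31.9% of all genes, and 2 of 7 rose against 18.0%. The 4 libraries of one state lay wholly above or below those of the other for 7 of 7, against 47.3% of all tested genes (17.1% higher and 30.2% lower in differentiated cells). FGFR1IIIC fell as well. FGFR3 reached the mean of 1 FPKM only through its undifferentiated libraries, so its passing is no support for the count. Over all tested genes the median log2 change was -0.18, with quartiles at -0.67 and 0.34. SDC4 had a lower log2 change than all but 1.57% of tested genes, SDC1 than all but 2.76% and FGFR4 than all but 4.45%, whereas 94.3% of tested genes had a lower change than SDC2. Fold changes are on the log2(FPKM + 1) scale, which understates the change of low genes such as FGFR3.

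**Figure D1:**
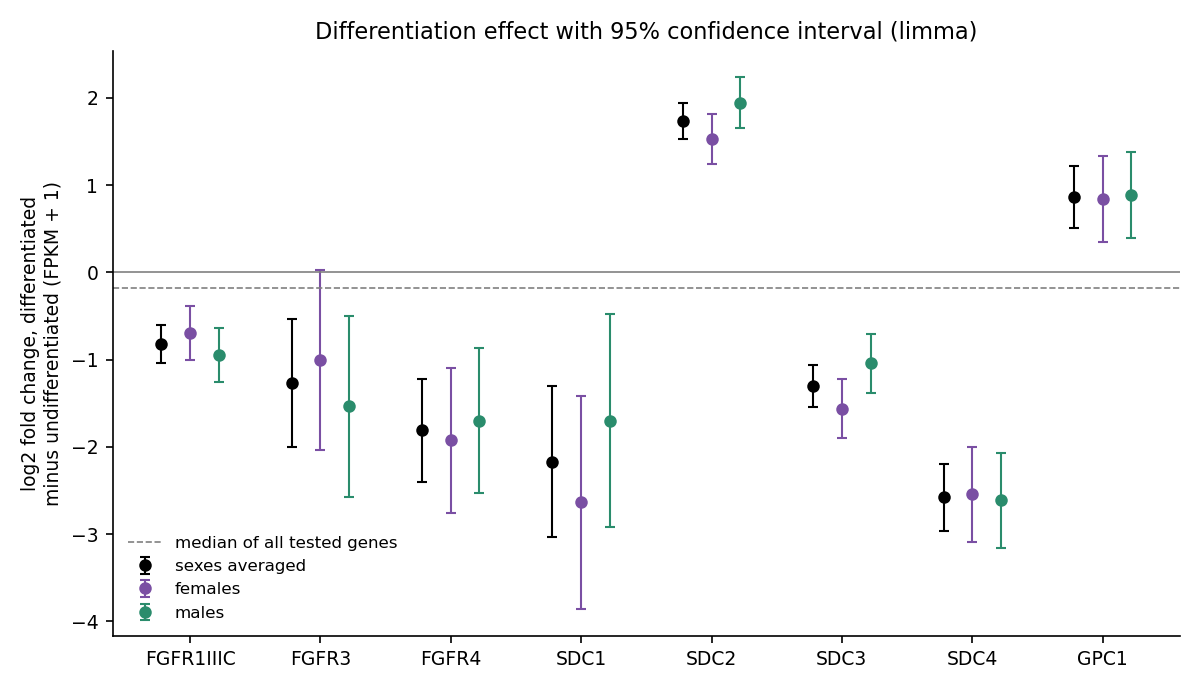
Log2 change on the log2(FPKM + 1) scale, differentiated minus undifferentiated, for each tested gene with its 95% confidence interval from limma, for both sexes together, females and males, with the median of all tested genes dashed. SDC2 and GPC1 lie above 0 and the other genes below it, and for FGFR3 in females the interval crosses 0.

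FGFR4 was the most abundant of the 9 genes in undifferentiated cells. It stood at 199 and 297 FPKM in the undifferentiated female libraries and at 168 and 197 FPKM in the male ones. In differentiated cells it stood at 68.7 and 58.2 FPKM in females and at 39.7 and 76.7 FPKM in males. The states did not overlap: the lowest undifferentiated library held 168 FPKM and the highest differentiated one 76.7 FPKM. The mean went from 215 ± 56.1 FPKM (SD, n = 4) to 60.8 ± 16.0 FPKM (n = 4), a ratio of 3.54 between the means. On the log2 scale FGFR4 fell by 1.81 (SE 0.241, limma adjusted p = 0.00166). After differentiation FGFR4 remained at a mean level above that of 88.3% of tested genes.

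FGFR1IIIC, the row of the other receptor of myogenic cells, changed less. Its undifferentiated libraries held 69.2 and 61.6 FPKM in females and 74.4 and 71.6 FPKM in males. Its differentiated libraries held 43.1 and 36.9 FPKM in females and 38.3 and 36.4 FPKM in males. Every differentiated library was below every undifferentiated one, and the spread within a state was narrow, with a coefficient of variation of 7.92% before and 7.91% after differentiation. On average it went from 69.2 ± 5.48 to 38.7 ± 3.06 FPKM (SD, n = 4 each), and the log2 value fell by 0.82 (SE 0.0891, limma adjusted p = 0.000784). The 95% intervals of the log2 change, -1.04 to -0.61 for FGFR1IIIC and -2.40 to -1.23 for FGFR4, did not overlap. A test between these genes was not made.

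FGFR3, a receptor best known from growing cartilage, was low throughout. It stood at 2.33 and 4.52 FPKM in undifferentiated females and at 3.83 and 4.22 FPKM in undifferentiated males. It stood at 1.01 and 1.27 FPKM in differentiated females and at 0.197 and 1.51 FPKM in differentiated males. The states did not overlap, and differentiated male replicate 1 lay apart from the other 3 libraries of its state. Its mean moved from 3.73 ± 0.971 to 0.997 ± 0.572 FPKM (SD, n = 4 each), and the log2 value fell by 1.27 (SE 0.301, limma adjusted p = 0.0148). Without differentiated male replicate 1 the log2 change of FGFR3 was -1.003 (limma adjusted p = 0.0233).

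FGFR2, whose splice forms serve epithelia and mesenchyme, was near the floor of the table and was not tested, with a mean of 0.469 FPKM over the 8 libraries. It stood at 0.339 and 0.345 FPKM in undifferentiated females, 0.0947 and 1.16 FPKM in undifferentiated males, 0.815 and 0.357 FPKM in differentiated females and 0.234 and 0.407 FPKM in differentiated males. The states overlapped, and the highest and the lowest library were both undifferentiated males. With no filter on low values the log2 change of FGFR2 was 0.00195 with a 95% interval of -0.66 to 0.67 (limma adjusted p = 1). That interval is on the log2(FPKM + 1) scale, where large changes of so low a level look small, so these values do not show whether FGFR2 changed.

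**Figure D2:**
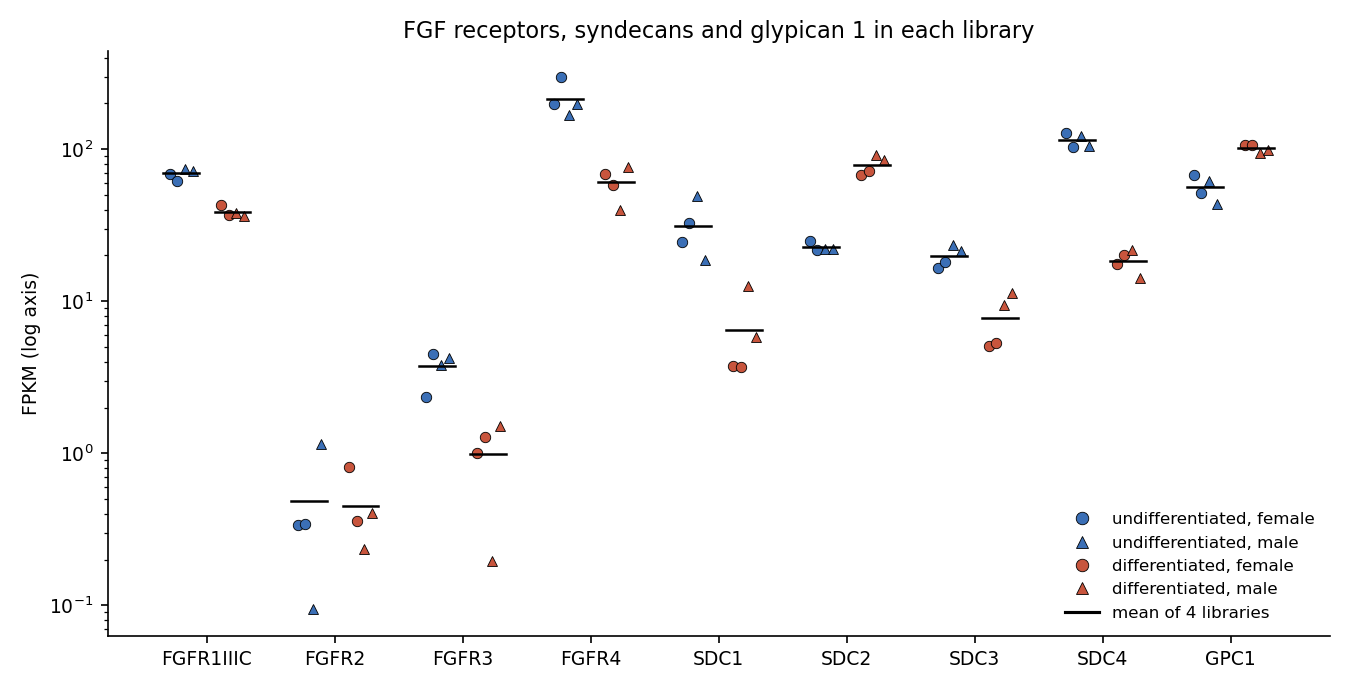
FPKM of each gene in the 8 libraries on a log axis, with undifferentiated and differentiated libraries set apart, females and males marked and a bar at the mean of each state. The states overlap for FGFR2 alone, and SDC2 and GPC1 are the genes whose differentiated libraries are the higher ones.

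The makeup of the receptor pool shifted with these changes. The summed level of the 4 receptor rows was 289 ± 51.2 FPKM in undifferentiated cells (SD, n = 4, 246 to 363) and 101 ± 17.1 FPKM in differentiated cells (78.5 to 115). FGFR4 made up 73.8 ± 5.69% of that sum before differentiation (68.2 to 81.7%) and 59.5 ± 6.64% after it (50.6 to 66.7%). FGFR1IIIC made up 24.7 ± 5.56% before (17.0 to 30.2%) and 39.1 ± 7.14% after (31.6 to 48.8%). For both, the shares in the 2 states did not overlap, but the gap was small beside the spread: 66.7% against 68.2% for FGFR4. FGFR4 exceeded FGFR1IIIC in every library, by a factor of 2.26 to 4.81 in undifferentiated and of 1.04 to 2.11 in differentiated cells. The factor of 1.04 was that of differentiated male replicate 1. FGFR3 and FGFR2 together stayed minor, at mean shares of 1.30% and 0.170% before and 0.942% and 0.435% after differentiation. These shares follow from the genes' own changes and were not tested.

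SDC4, the syndecan of focal adhesions and a satellite cell marker, had the lowest log2 change of the tested genes described here. It held 128 and 103 FPKM in undifferentiated females and 121 and 105 FPKM in undifferentiated males. It held 17.5 and 20.2 FPKM in differentiated females and 21.6 and 14.3 FPKM in differentiated males. The states lay far apart, with no library between 21.6 and 103 FPKM. Averages were 114 ± 12.15 FPKM before and 18.4 ± 3.25 FPKM after differentiation (SD, n = 4 each), a ratio of 6.21. The log2 value fell by 2.58 (SE 0.158, limma adjusted p = 0.000114).

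SDC1, the syndecan best known from epithelia and plasma cells, was the most variable of the tested syndecans. It stood at 24.6 and 32.8 FPKM in undifferentiated females and at 48.9 and 18.7 FPKM in undifferentiated males. It stood at 3.74 and 3.71 FPKM in differentiated females and at 12.6 and 5.86 FPKM in differentiated males. The states did not overlap, the 2 undifferentiated males were the highest and the lowest of their state, and differentiated male replicate 1 was the highest of its own. In the mean, SDC1 went from 31.3 ± 13.1 to 6.48 ± 4.20 FPKM (SD, n = 4 each), and the log2 value fell by 2.17 (SE 0.355, limma adjusted p = 0.00360). Of the epithelial markers, EPCAM, KRT8, KRT18, KRT14 and ESRP1 stayed under 1 FPKM in every library and CDH1 rose. The plasma cell marker MZB1 was at or below 0.308 FPKM in undifferentiated libraries and reached 1.40 FPKM in a differentiated one. The part of epithelial or plasma cells in the SDC1 values was not tested.

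SDC3, the syndecan of nerve and of developing muscle, also fell. It held 16.4 and 18.2 FPKM in undifferentiated females and 23.3 and 21.5 FPKM in undifferentiated males. It held 5.11 and 5.29 FPKM in differentiated females and 9.45 and 11.3 FPKM in differentiated males. Undifferentiated libraries were higher than differentiated ones, and within each state the males were higher than the females. The mean went from 19.9 ± 3.11 to 7.80 ± 3.09 FPKM (SD, n = 4 each), and the log2 value fell by 1.30 (SE 0.0976, limma adjusted p = 0.000233).

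SDC2, the syndecan typical of mesenchymal and fibroblastic cells, was the one syndecan that rose. It stood at 25.1 and 21.7 FPKM in undifferentiated females and at 22.1 FPKM in both undifferentiated males. It stood at 67.2 and 71.3 FPKM in differentiated females and at 91.5 and 84.4 FPKM in differentiated males. All 4 differentiated libraries were above all 4 undifferentiated ones, and among the differentiated libraries the males were above the females. Its average climbed from 22.7 ± 1.56 to 78.6 ± 11.3 FPKM (SD, n = 4 each), a ratio of 3.46. The log2 value rose by 1.74 (SE 0.0842, limma adjusted p = 4.63e-05). Summed fibroblast markers, most of them COL1A1 and COL3A1, were higher in every differentiated library than in every undifferentiated one. Of 5 tested fibroblast markers 2 rose and 3 did not pass, and their part in the SDC2 values was not tested.

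The leading syndecan thus differed between the states. The summed level of the 4 syndecans was 188 ± 21.5 FPKM before (SD, n = 4) and 111 ± 18.5 FPKM after differentiation. SDC4 made up 60.9 ± 4.27% of it in undifferentiated libraries (56.2 to 65.9%) and 16.8 ± 3.42% in differentiated ones (12.3 to 20.1%). SDC2 made up 12.2 ± 1.34% (10.3 to 13.2%) and then 70.8 ± 2.23% (67.7 to 72.9%). SDC4 was 4.74 to 5.48 times SDC2 in the undifferentiated libraries, and SDC2 was 3.53 to 5.92 times SDC4 in the differentiated ones. The share of SDC1 went from 11.2 to 22.7% down to 3.70 to 9.31%. The share of SDC3, 8.48 to 12.9% before and 5.26 to 9.78% after, overlapped between the states. Among the receptors, FGFR4 led in both states.

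**Figure D3:**
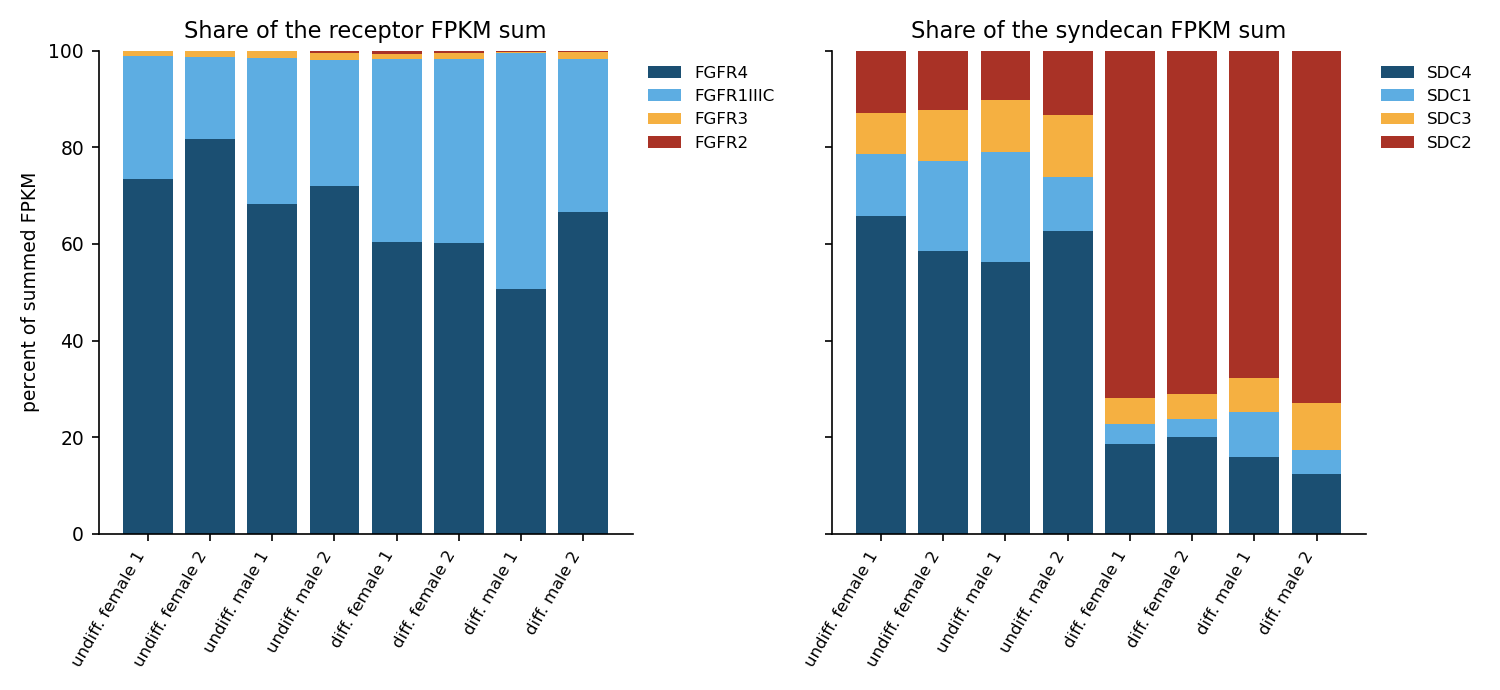
Share of the summed FPKM of the 4 FGF receptor rows (one panel) and of the 4 syndecans (the other panel) in each of the 8 libraries, as stacked bars in percent. FGFR4 is the largest receptor share in every library, while the largest syndecan share is that of SDC4 in undifferentiated and of SDC2 in differentiated libraries.

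GPC1, a glypican that presents FGF2 to its receptors, rose. It held 68.0 and 51.4 FPKM in undifferentiated females and 61.4 and 43.7 FPKM in undifferentiated males. It held 106 and 107 FPKM in differentiated females and 94.9 and 98.3 FPKM in differentiated males. The states did not overlap, and the differentiated libraries were close together, with a coefficient of variation of 5.83% against 19.1% before. The mean went from 56.1 ± 10.7 to 102 ± 5.93 FPKM (SD, n = 4 each), and the log2 value rose by 0.86 (SE 0.144, limma adjusted p = 0.00385). Adding GPC1 to the 4 syndecans gave 244 ± 30.5 FPKM before and 213 ± 12.9 FPKM after differentiation, and these sums overlapped (211 to 277 against 200 to 230 FPKM). The summed receptors were 0.889 to 1.599 times that sum of co-receptors in undifferentiated and 0.341 to 0.569 times in differentiated libraries.

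Other proteoglycans that carry heparan sulfate at the cell surface or in the matrix around it were taken from a list of 11, of which 8 were tested, 4 rose and 2 fell. The median log2 change was 0.60, against -0.18 over all tested genes, but it lay in a gap between the 4 that rose and the rest. With no filter on low values, where 9 of the list were tested, the median was -0.08, against 0 over all genes. The counts of this list and of the lists below stand beside 18.0% of all tested genes that rose and 31.9% that fell. Those shares hold for the FPKM as deposited, where 2339 of 12963 genes rose and 4137 fell. Counts under median-ratio scaling stand beside 3220 genes that rose and 2920 that fell. Fits without 1 library called fewer of all genes. The glypican GPC3 rose from 63.1 ± 25.9 to 226 ± 44.2 FPKM (SD, n = 4 each, log2 change 1.92, limma adjusted p = 0.00689). HSPG2, which encodes perlecan of the basement membrane, rose from 63.4 to 206 FPKM (1.70, limma adjusted p = 0.000602). CD44, a hyaluronan receptor with forms that carry heparan sulfate, fell from 332 to 59.0 FPKM (log2 change -2.51, limma adjusted p = 0.000400). AGRN, the organiser of the neuromuscular junction, fell from 4.41 to 1.19 FPKM (-1.27, limma adjusted p = 0.0119). Named after their values were seen, GPC2 rose by 1.28 and NRP1, a co-receptor that also binds heparin-binding growth factors, by 1.64 on the log2 scale, while GPC4 did not pass (87.6 against 83.3 FPKM, log2 change -0.08, limma adjusted p = 0.648). The sign of the GPC4 change flipped to 0.15 under median-ratio scaling, to 0.0141 under quantile normalization and to 0.0366 without differentiated female replicate 2. The sum of GPC1, GPC2, GPC3, GPC4 and GPC6 was 187 to 237 FPKM in undifferentiated and 356 to 461 FPKM in differentiated libraries, so that the glypicans as a sum were higher in every differentiated library while the syndecans as a sum were lower.

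Among the 9 genes, the order of levels in undifferentiated cells was FGFR4, SDC4, FGFR1IIIC, GPC1, SDC1, SDC2, SDC3, FGFR3 and FGFR2. FGFR4 and SDC4 were each apart from the next gene over the 4 libraries. From FGFR1IIIC down to SDC3, each gene's range overlapped that of the next, while FGFR3 lay apart from SDC3 above it and from FGFR2 below it. In differentiated cells the order was GPC1, SDC2, FGFR4, FGFR1IIIC, SDC4, SDC3, SDC1, FGFR3 and FGFR2. GPC1 lay apart from SDC2, FGFR1IIIC from SDC4, SDC4 from SDC3 and SDC1 from FGFR3, and the ranges of the other neighbours overlapped. Set among all tested genes, SDC4 went from a mean above 93.0% of them to one above 65.6%, and SDC2 from 68.2% to 90.8%. FGFR3 ended above 3.27% of tested genes.

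The change was looked at within each sex, in the same limma fit. In females, 4 of the 7 tested genes fell and 2 rose, against 35.8% of all genes called (23.3% lower, 12.5% higher), and FGFR3 did not pass (log2 change -1.01, limma adjusted p = 0.115). In males, 5 fell and 2 rose, against 33.0% of all genes called (20.1% lower, 12.9% higher). The fall of FGFR3 in males (-1.53, limma adjusted p = 0.0376) lost its call in 8 of 14 alternatives, with adjusted p up to 0.136, and that of SDC1 (-1.70, limma adjusted p = 0.0453) in 9 of 14, with adjusted p up to 0.197. Among the libraries, FGFR3 lost it without either undifferentiated male, either differentiated female or differentiated male replicate 1, and SDC1 without either undifferentiated female, either differentiated female, undifferentiated male replicate 1 or differentiated male replicate 2. GPC1 lost its call in 4 of 14 alternatives in each sex, with no filter on low values and without undifferentiated replicate 2 or either differentiated replicate of that sex. FGFR4 lost it in males in 3, with no filter and without either undifferentiated male, and in females without differentiated female replicate 2. SDC1 lost it in females without replicate 2 of either state, and FGFR1IIIC without undifferentiated female replicate 1. Counted over the 7 genes, 1 rose and 2 fell in males with no filter on low values, where 1562 of all 25285 genes rose and 1785 fell. Within a sex, fits that left out 1 of its libraries called fewer of all tested genes too, by the numbers given in the last section. For SDC4 the log2 change was -2.55 in females and -2.61 in males, with a 95% interval of the difference from -0.84 to 0.70. The change of SDC2 was 1.53 in females and 1.94 in males, and that of SDC3 was -1.56 and -1.04.

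No difference in the change between the sexes passed the test for the 7 genes (lowest limma adjusted p = 0.808), against 0.0231% of all tested genes. At an unadjusted p under 0.05 there were 2, namely SDC2 (males minus females 0.42, 95% interval 0.00444 to 0.83) and SDC3 (0.52, 0.0426 to 0.99). For FGFR4 the interval of that difference was -0.95 to 1.40 and for SDC1 -0.79 to 2.67, wide enough to hold large differences between the sexes. Between females and males averaged over the states, 0 of 7 passed limma's test against 0.0849% of all genes, and 1 had an unadjusted p under 0.05. That gene was SDC3, which was lower in females by 0.61 on the log2 scale (limma adjusted p = 0.228), with both males above both females in each state.

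Differentiated male replicate 1 stood apart in its markers. Its summed proliferation markers were 106 FPKM, against 36.3 to 46.3 FPKM in the other 3 differentiated libraries, and its summed fibroblast markers were 1129 FPKM against 431 to 816 FPKM. The fibroblast genes DCN (21.3 FPKM) and PDGFRA (4.499 FPKM) were highest there among the 8 libraries. Among the 4 differentiated libraries it was the lowest for FGFR2, FGFR3, FGFR4 and GPC1, the highest for SDC1, SDC2 and SDC4, and between the others for FGFR1IIIC and SDC3. Left out, every call on these genes over both sexes was kept, with log2 changes of -1.003 for FGFR3 and -1.24 for SDC3. The part of these markers in the spread of the genes was not tested.

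The scaling of the libraries moves the sizes given above. Median-ratio scaling shifted the median change of all tested genes by 0.20 on the log2 scale, and the called genes that fell went from 63.9% to 47.6% (55.0% under quantile normalization). Under median-ratio scaling the log2 change was -1.59 for FGFR4, -0.60 for FGFR1IIIC, -1.12 for FGFR3, -2.36 for SDC4, -1.96 for SDC1, -1.09 for SDC3, 1.96 for SDC2 and 1.09 for GPC1. Each kept its direction and its call.

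The ligands offered to these receptors were taken from a list of 22 FGFs, of which 18 had a row and 5 reached the tested level. FGF9, a ligand that prefers FGFR3 and the mesenchymal forms of FGFR2, rose from 2.21 ± 0.427 to 8.55 ± 1.71 FPKM (SD, n = 4 each, log2 change 1.56, limma adjusted p = 0.000345). FGF13, a member that stays in the cell and does not act through the receptors, rose from 5.71 to 19.1 FPKM (1.58, limma adjusted p = 0.000158). FGF19, the hormone-like ligand that acts through FGFR4 with a klotho co-receptor, fell from 12.5 ± 3.86 FPKM to values of 0, 0, 1.42 and 0.358 FPKM (-3.29, limma adjusted p = 0.000314). FGF19 reached the tested mean only through its undifferentiated libraries. The untested 13 had a highest single value of 2.23 FPKM. Named after its values were seen, FGF2, the classic myoblast mitogen, stood at 26.8, 16.9, 22.5 and 12.4 FPKM in undifferentiated libraries and was listed at 9.40, 0, 7.92 and 0 FPKM in differentiated ones. Every differentiated library of FGF2 was below every undifferentiated one, but 1 differentiated library of each sex was listed at 0 and the other was not. FGF2 did not pass (log2 change -2.68, limma adjusted p = 0.0600). It passed in 5 of 15 alternatives, with adjusted p from 0.0276 to 0.0397, which include those without differentiated female replicate 1 or differentiated male replicate 1, and over all 15 the adjusted p ran up to 0.171.

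The list of other FGF co-receptors and binding proteins had 12 symbols and held IL17RD also under its other name SEF. Of these symbols, 8 had a row and 4 were tested, of which 2 rose and 2 fell (median log2 change 0.26). The FLRT proteins bind FGF receptors at the membrane. FLRT2 rose from 13.8 to 40.5 FPKM (log2 change 1.51, limma adjusted p = 0.00104) and FLRT1 from 1.91 to 7.21 FPKM (1.52, limma adjusted p = 0.00139). FLRT3 fell from 20.4 to 4.23 FPKM (-2.06, limma adjusted p = 0.00139). IL17RD, also known as SEF, an inhibitor of FGF receptor signalling, fell from 75.6 to 38.6 FPKM (-0.996, limma adjusted p = 0.0111).

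Inside the cell, the adaptors and the ERK cascade did not move in 1 direction. Of 19 listed, 18 were tested, 5 rose, 7 fell and 6 did not pass, with a median log2 change of -0.12 that was 0.0532 under median-ratio scaling, where 7 rose and 5 fell, and 0.0138 without differentiated male replicate 2. The count that rose was 1 without differentiated female replicate 2, 2 without undifferentiated male replicate 1, and 3 without either undifferentiated female, differentiated female replicate 1 or differentiated male replicate 2. GRB2, the adaptor that brings SOS to the receptor complex, rose by 0.74 (limma adjusted p = 0.00284) and MAP2K1, the kinase of ERK, by 0.89 on the log2 scale (limma adjusted p = 0.0139, with the call lost at 0.0507 without differentiated female replicate 2 and at 0.0526 with no filter on low values). CBL, the ubiquitin ligase that targets active receptors for breakdown, fell by 0.78 (limma adjusted p = 0.00305) and NRAS fell by 0.79 (limma adjusted p = 0.00433). Named after its values were seen, FRS2, the docking protein of the FGF receptors, fell by 0.41 (limma adjusted p = 0.0368). The call on FRS2 was lost in 10 of 15 alternatives, with adjusted p up to 0.292, among them each left-out library other than differentiated female replicate 2. Of 15 feedback genes of FGF and ERK signalling, 14 were tested and 12 fell (median log2 change -1.09), against 31.9% of all tested genes. The phosphatases DUSP5 (log2 change -3.88, limma adjusted p = 5.30e-05) and DUSP6 (-3.62, limma adjusted p = 0.000576) fell most. Under median-ratio scaling 10 feedback genes fell, against 2920 of all 12963 tested genes.

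The enzymes that build and modify heparan sulfate fell or did not pass, apart from 1. Of 35 listed, 28 had a row, 20 were tested, 9 fell, 1 rose and 10 did not pass (median log2 change -0.50). The number that fell was 5 under median-ratio scaling and 5 without differentiated female replicate 2. EXT1 and EXT2, which together polymerise the chain, fell from 29.5 to 10.25 FPKM (log2 change -1.46, limma adjusted p = 0.000632) and from 39.0 to 17.7 FPKM (-1.10, limma adjusted p = 0.000316). HS6ST1, which adds a sulfate that FGF receptor complexes use, was named after its values were seen and fell from 21.4 to 10.7 FPKM (-0.94, limma adjusted p = 0.000404). SULF1, which removes sulfate of that kind outside the cell, was the one that rose, from 1.67 to 4.31 FPKM (0.995, limma adjusted p = 0.00362).

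A list of 12 genes was drawn up for partners of the cytoplasmic tails of syndecans, of which 10 were tested, 6 fell and 2 rose (median log2 change -0.55). Under median-ratio scaling 4 fell and 2 rose. TIAM1, an activator of RAC that binds SDC1, fell from 26.1 to 3.26 FPKM (log2 change -2.79, limma adjusted p = 0.000286). ACTN1, the actin crosslinker to which SDC4 binds, fell from 134 to 54.9 FPKM (-1.31, limma adjusted p = 0.00120). GIPC1 (0.57, limma adjusted p = 0.00193) and SYNJ2BP (0.91, limma adjusted p = 0.000454), both PDZ proteins, rose. Whether SYNJ2BP binds a syndecan was not checked. Named after their values were seen, CASK fell by 0.83 (limma adjusted p = 0.00572) and SDCBP, or syntenin, fell by 0.48 (limma adjusted p = 0.0155). The call on SDCBP was lost in 3 of 15 alternatives: under median-ratio scaling, without undifferentiated female replicate 2 and without undifferentiated male replicate 1, with adjusted p up to 0.120.

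Of 12 enzymes that shed syndecans and their inhibitors, 8 were tested, 5 fell and 1 rose (median log2 change -0.75). The number that rose was 2 under median-ratio scaling, under quantile normalization and without differentiated female replicate 2. TIMP1 fell from 666 to 260 FPKM (log2 change -1.32, limma adjusted p = 0.000871), while TIMP3, which inhibits ADAM proteases as well, rose from 2.32 to 6.57 FPKM (1.23, limma adjusted p = 0.00707). MMP16 fell from 5.40 to 2.23 FPKM (-1.05, limma adjusted p = 0.00901). Named after their values were seen, the sheddases ADAM10 and MMP14 fell by 0.89 (limma adjusted p = 0.00408) and by 0.75 (limma adjusted p = 0.00462). Genes of proteases and of the inhibitor TIMP1 were thus both among those that fell.

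Heparan sulfate also serves growth factors other than FGFs. Of 14 such factors and receptors, 12 were tested, 6 fell, 2 rose and 4 did not pass (median log2 change -0.91). The midkine gene MDK, a ligand of syndecans, fell from 130 to 20.3 FPKM (log2 change -2.54, limma adjusted p = 1.76e-05), and PDGFA fell from 114 to 16.6 FPKM (-2.70, limma adjusted p = 3.31e-05). MET, the receptor of hepatocyte growth factor, was named after its values were seen and fell from 83.9 to 25.3 FPKM (-1.69, limma adjusted p = 0.000127), while its ligand HGF stayed at or below 0.835 FPKM. CXCL12 rose from 0.406 to 5.19 FPKM (2.00, limma adjusted p = 0.0134). It reached the tested mean only through its differentiated libraries, and its call was lost with no filter on low values (limma adjusted p = 0.0522). PDGFRB rose as well (0.95, limma adjusted p = 0.0431), with 46.7 FPKM in differentiated male replicate 1 against 9.58 to 18.1 FPKM in the other differentiated libraries. Its call was lost in 8 of 15 alternatives, among them each that left out an undifferentiated library or a differentiated female, with adjusted p up to 0.130, and the number that rose was then 1.

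Regulators known to choose between FGF receptor splice forms were listed as 9 genes, of which 7 were tested, 3 fell and 2 rose (median log2 change -0.26). RBFOX1, a splicing factor of muscle and nerve, rose from 1.54 to 31.6 FPKM (log2 change 3.67, limma adjusted p = 8.87e-05) and RBFOX2 rose by 0.41 (limma adjusted p = 0.0113). PTBP1, a repressor of exons in proliferating cells, fell from 147 to 45.2 FPKM (-1.74, limma adjusted p = 0.000715), and HNRNPM fell by 0.50 (limma adjusted p = 0.00575). ESRP1, the epithelial regulator of FGFR2, stayed under 1 FPKM. The table gives levels by gene, so no value here bears on splice forms of the receptors.

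**Figure D4:**
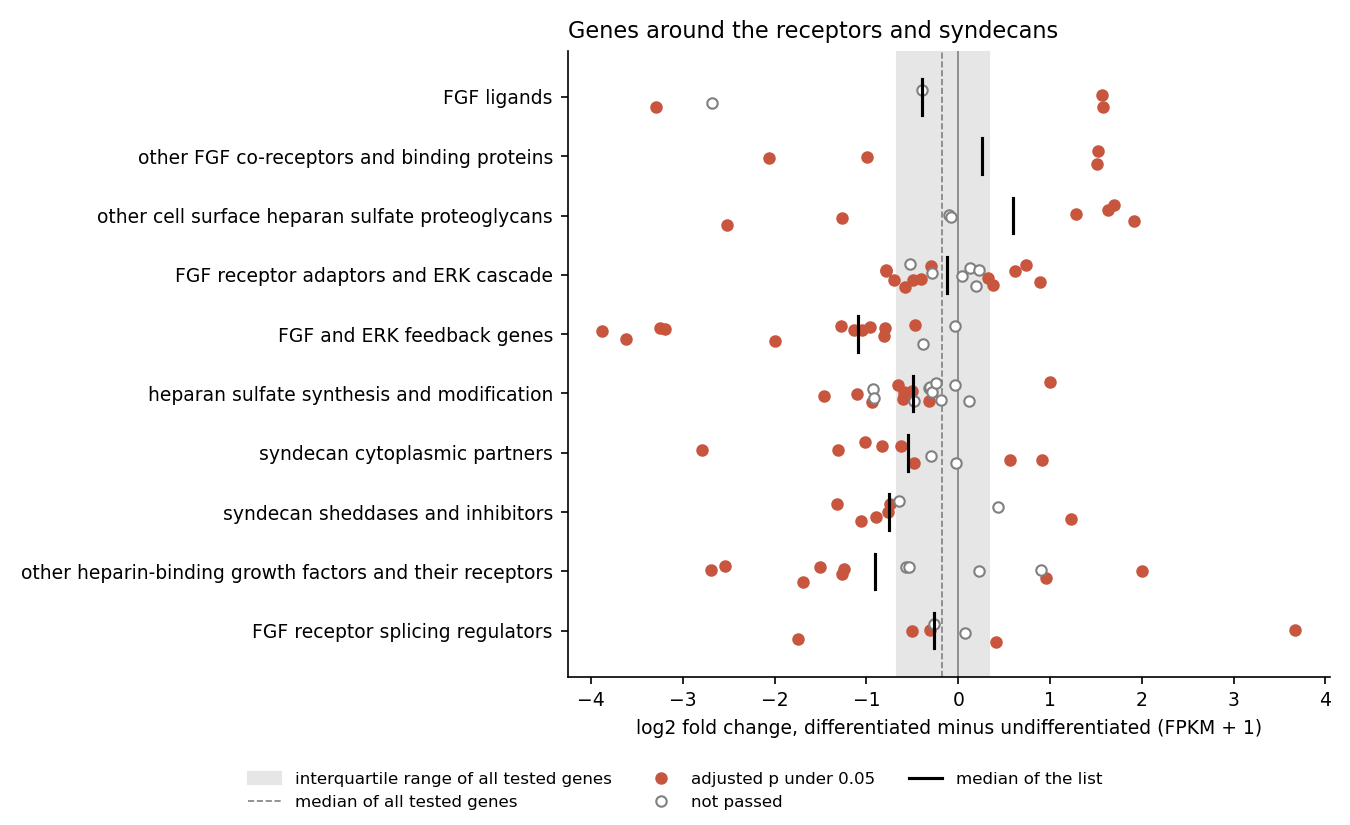
Log2 change on the log2(FPKM + 1) scale, differentiated minus undifferentiated, of each tested gene (points) in the 10 lists around FGF receptors and heparan sulfate, with the list's median as a bar and filled points for genes past limma's threshold. The 12 feedback genes that passed lie to the left of 0, while genes of the adaptor list lie on both sides of it. The grey band and the dashed line give the quartiles and the median of all tested genes.

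Genes whose levels over the 8 libraries were most like each gene's were found by the root mean square difference of log2(FPKM + 1), after each gene's mean was taken off. For FGFR1IIIC these were IRF1 (difference 0.0350) and DERA (0.0545), and for FGFR3 FAM69B (0.123) and B4GALT2 (0.222). For FGFR4 they were KLF9 (0.202) and MYF-5 (0.216), the latter the row of the myogenic regulator MYF5. For SDC1 they were SGOL1 (0.216) and RHNO1 (0.226), for SDC2 TMCC3 (0.0925) and MOB1B (0.122), for SDC3 EHBP1 (0.160) and CHST10 (0.162), and for SDC4 SLC25A5 (0.162) and PLOD1 (0.182). For GPC1 they were PAG1 (0.0830) and IFIT2 (0.0988). None of the 8 tested rows was among the 2 nearest of another. FGFR2, which was not tested, was left out of this comparison. The likeness includes the difference between the states, and it is given as a description.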

How the data were processed

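Strand-specific libraries from a low-input total RNA kit were sequenced, per the labels' protocols, while the labels give the molecule as polyA RNA. The authors deposited FPKM values for 25285 genes. The build was Sscrofa10.2, and Cufflinks 2.2.1, TopHat2 2.0.12.1 and cutadapt 1.6 were used with settings that are not stated, per the submitters' processing notes. Symbols came with the table for 16274 genes and from a table of Ensembl identifiers for 1841, which left 7170 unnamed. Whole reads were not recovered from the FPKM, so no count test was run. A relative depth came from 1839 low genes over 28 library pairs, with a largest misfit of 0.146 on the log2 scale. A column with the number of samples per gene was not used, since it differed from the libraries above 0 for 189 genes.

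Testing covered the 12963 genes that averaged 1 FPKM or more, on log2(FPKM + 1) with limma 3.58.1 in R 4.3.3, using lmFit and eBayes with a trend, 1 mean per group and 4 residual and 2.09 prior degrees of freedom. The two-sided p-values were adjusted for all 12963 genes (Benjamini-Hochberg), with calls at an adjusted p under 0.05. A gene "rose" or "fell" only if called, and ± gives the SD of FPKM. The script was tested on simulated data. The genes described and all lists were chosen with earlier results of these data known. Named genes are the described genes, the 2 most risen and 2 most fallen called members of each list and the 2 genes most like each tested one. Others are said to be named after their values were seen. Alternatives were a pseudocount of 0.1, no filter, median-ratio scaling, quantile normalization, leaving out genes under 300 bp, sex not in the model, a replicate block and leaving out each library. No sequences of these genes were used here.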

Additional observations from a re-analysis of the deposited data

Results flagged for a closer look

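In undifferentiated cells, female replicate 1 held 25.1 FPKM of SDC2, while the other 3 undifferentiated libraries lay between 21.7 and 22.1 FPKM, so that it stood apart from its group by its gap to the nearest library. It was 1 of 18 groups of 4 libraries looked at in this way, and chance gives about 1 in 20 groups. Without this library the rise of SDC2 kept its call.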

How the results depend on the processing

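All 120 values of the 8 tested rows over both sexes (15 alternatives each) kept their direction and call, and so did 889 of 930 values of 62 other named genes. Of the latter, 33 lost the call, 5 gained it and 3 changed sign, all 3 for GPC4: 0.15 under median-ratio scaling, 0.0141 under quantile normalization and 0.0366 without differentiated female replicate 2 (range with 1 library left out -0.19 to 0.0366). Counts of called genes moved more. For the difference of the change between the sexes, 3 genes were called, 39 with no filter on low values, 7 under quantile normalization, and 7 to 25 when 1 library was left out. For the sexes, 11 genes were called, 50 with no filter and 15 to 32 with 1 library left out. Within females 4644 genes were called and 2549 to 4608 with 1 library left out, and within males 4283 and 2381 to 4052. The cause was not tested.

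Whether replicate numbers pair the libraries could not be decided. Deviations of same-numbered libraries from their group means correlated at 0.0684 in females and -0.0264 in males. In a group of 2 libraries these deviations are exact opposites, so each sex gives only a single value. With the replicate block, 6154 genes were called over both sexes in place of 6476, with the same 2 of the 7 counted genes up and 5 down, and for the difference between the sexes 0 genes were called by limma (831 at an unadjusted p under 0.05). Groups of 2 libraries limit what can be seen between the sexes, and the precision of low values such as those of FGFR2 and FGFR3 is limited by a depth that is unknown in reads.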
